A study of Mus musculus with 6 samples.

Results

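Death receptors, caspases and their adaptors are represented here by 8 genes chosen by symbol, Fas, Tnfrsf10b, Tnfrsf1a, Tnfrsf12a, Casp8, Casp9, Apaf1 and Pidd1. All 8 were found among the 24421 genes listed in the count tables, and all 8 were among the 14180 genes with enough counts to be tested. The measurements are bulk RNA-Seq counts from gastrocnemius/plantaris (GP) muscle, a calf muscle group, of adult male mice. Their labels give the B6C3F1 strain background, and the methods of the study state that founders of the floxed line were bred to C57BL/6N mice, so the background is mixed. Net39 encodes a protein of the nuclear envelope in muscle, and the study compared muscle with and without it. By its labels the Ctrl group holds 3 mice of the genotype Net39 fl/fl without Cre, and the cKO group 3 mice that carry HSA-CreERT2 with Net39 fl/fl. The transcript of the targeted gene goes against these labels. Every mouse of both groups carried the floxed allele, in which the first exon is flanked by loxP sites, received tamoxifen and was 5 months of age, 3 months after tamoxifen. The human skeletal actin (HSA) promoter drives the Cre in skeletal muscle and not in satellite cells, per the methods of the study.

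Death receptors are members of the TNF receptor superfamily that pass a signal from a ligand at the cell surface to caspases, the proteases that carry out apoptosis. In the extrinsic route, a ligand-bound receptor gathers the adaptor FADD and activates Casp8, while in the intrinsic route cytochrome c leaves mitochondria, binds Apaf1 and activates Casp9. Both routes lead to the caspases that cut the proteins of the cell. In adult skeletal muscle these genes are also studied outside cell death, because caspases take part in differentiation and in protein breakdown during wasting, and Tnfrsf12a (Fn14) is known as a receptor that muscle makes after injury or denervation.

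The targeted gene goes against the labels. Net39, which the tables list as Ppapdc3, had 310, 321 and 217 counts in the Ctrl-labelled libraries 1 to 3 and 5365, 4340 and 6080 counts in the cKO-labelled libraries 1 to 3. It was therefore low in every Ctrl-labelled library, and the genotypes may be exchanged between the labelled groups, which was not tested. All directions are given for the libraries as labelled, and log2 fold changes are stated as labelled cKO relative to labelled Ctrl, so that a negative value means a higher level in the libraries in which Net39 is low. Total counts were 33860001 to 38201728 in the Ctrl-labelled libraries and 39191239 to 48839910 in the cKO-labelled ones. The 10 most abundant genes took 14.69% to 17.14% of the counts in the former and 21.79% to 25.31% in the latter.

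Of the 8 genes, 2 passed the test between the labelled groups at an adjusted p under 0.05, where 11.8% of all genes tested were called higher in the Ctrl-labelled libraries and 12.6% in the cKO-labelled ones. The receptor Tnfrsf12a and the adaptor Pidd1 were both higher in the Ctrl-labelled libraries, by 2.45-fold and 2.03-fold, and the call of Pidd1 was lost under 7 of 13 alternative settings. The other 6 had log2 fold changes below 0 that did not pass the test. The proximal promoters of this pair are shown because they belong to the genes that passed the test. That of Fas is shown because it alone of the 7 members with a RefSeq promoter held a match to the AP-1 motif. Each stretch is the 250 bases before the RefSeq transcription start on GRCm38.p6, 5′ to 3′ on the gene's strand. Capitals mark matches, on either strand, to the GC box GGGCGG and, in Fas only, to the AP-1 motif TGANTCA. They lie at chr17:23677450-23677699 (minus strand) for Tnfrsf12a, chr7:141444026-141444275 (minus strand) for Pidd1 and chr19:34290409-34290658 (plus strand) for Fas.
Tnfrsf12a: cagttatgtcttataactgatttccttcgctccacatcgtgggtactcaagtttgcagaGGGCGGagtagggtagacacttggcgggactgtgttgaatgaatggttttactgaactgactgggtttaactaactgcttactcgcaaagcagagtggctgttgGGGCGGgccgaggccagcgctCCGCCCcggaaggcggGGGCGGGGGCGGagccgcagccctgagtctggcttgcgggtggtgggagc
Pidd1: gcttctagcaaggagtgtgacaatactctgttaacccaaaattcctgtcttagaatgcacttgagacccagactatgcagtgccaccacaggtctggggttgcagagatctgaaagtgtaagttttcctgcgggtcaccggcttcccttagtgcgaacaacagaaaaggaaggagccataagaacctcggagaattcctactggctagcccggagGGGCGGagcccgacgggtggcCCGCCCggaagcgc
Fas: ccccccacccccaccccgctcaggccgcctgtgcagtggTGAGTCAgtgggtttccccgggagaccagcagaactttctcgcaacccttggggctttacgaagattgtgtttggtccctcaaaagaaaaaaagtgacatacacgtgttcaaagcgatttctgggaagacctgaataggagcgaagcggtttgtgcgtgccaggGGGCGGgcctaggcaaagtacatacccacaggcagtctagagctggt

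RefSeq held a promoter for 7 of the 8 members, all except Tnfrsf10b. Over 300 bases, from 250 before to 50 after the start, a GC box was present in 5 of the 7 (Fas, Tnfrsf12a, Casp9, Apaf1 and Pidd1) and in 35.7% of 32851 mouse promoters. Tnfrsf12a held 5 matches, of which those beginning at positions -50 and -44 from the start adjoin each other, and Pidd1 held 2, beginning at -35 and -14. Fas held 2 GC boxes, at -47 and, outside the stretch shown, at 29. Tnfrsf1a and Casp8 held 0. The windows of these genes, chr6:125349473-125349772 and chr1:58802252-58802551, lie inside the annotated genes, which begin at 125349362 and 58795374. Other start sites of Tnfrsf1a and Casp8 were not searched. The AP-1 match of Fas begins at position -211, and 7.81% of all promoters hold this motif. The TATA box TATAAA, the NF-kappaB motif and the p53 half-site were absent from all 7 windows, against shares of 13.6%, 8.46% and 8.36% of all promoters. These are matches of letters in a window and were not linked to any measurement of binding.

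Levels of different genes are set side by side as counts per 1000000 (CPM, scaled with TMM factors) per kilobase of annotated exon, since long genes collect more reads. On this scale Tnfrsf12a stood highest, at 24.1 ± 6.31 CPM per kb (SD, n = 3) in the Ctrl-labelled libraries and 9.83 ± 2.60 (SD, n = 3) in the cKO-labelled ones. Tnfrsf1a, the main receptor for TNF, followed with 11.9 ± 0.542 and 9.74 ± 1.40 CPM per kb (SD, n = 3 each). Fas came next with 4.60 ± 1.66 and 3.02 ± 0.0363 CPM per kb (SD, n = 3 each). These 3 receptors were thus the members with the most transcript per length in both groups.

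The initiator caspases and adaptors lay lower. Casp8 had 1.90 ± 0.379 and 1.62 ± 0.408 CPM per kb (SD, n = 3 each) in the Ctrl-labelled libraries and cKO, and Casp9 had 1.26 ± 0.0545 and 0.944 ± 0.116. Apaf1 had 0.597 ± 0.038 and 0.503 ± 0.0326, and the TRAIL receptor Tnfrsf10b had 0.591 ± 0.0607 and 0.45 ± 0.122. Pidd1 was the least abundant of the 8, with 0.248 ± 0.0796 and 0.122 ± 0.00402 CPM per kb. The order was the same in both groups. Apaf1 and Tnfrsf10b, next to each other in that order, overlapped between libraries in both groups, and Tnfrsf12a and Tnfrsf1a overlapped in the cKO-labelled libraries. All other neighbours were apart in every library of a group.

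**Figure D1:**
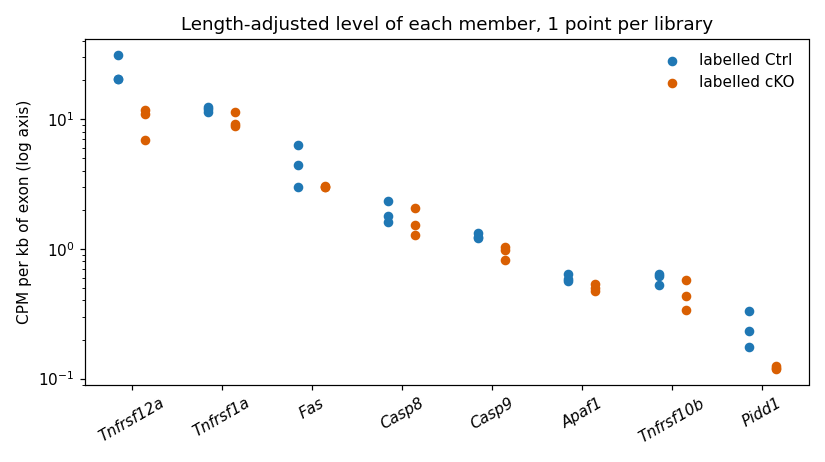
The vertical axis gives CPM per kilobase of exon on a log axis, the horizontal axis names the 8 members, and each point is 1 library, in blue for the Ctrl-labelled ones and in orange for the cKO-labelled ones. Tnfrsf12a is at the top with means of 24.1 and 9.83 and Pidd1 at the bottom with means of 0.248 and 0.122, and the order between them is the same in both groups.

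Among the 4 receptors, only Tnfrsf12a passed the test at an adjusted p under 0.05, and their changes were not tested against each other. Tnfrsf12a, the receptor for the cytokine TWEAK, has no death domain of its own and lies on the minus strand of chromosome 17 (23675445 to 23677468 on GRCm38). It had 39.5, 39.4 and 60.6 CPM in the Ctrl-labelled libraries 1 to 3 and 21.2, 22.5 and 13.2 CPM in the cKO-labelled libraries 1 to 3. All 3 Ctrl-labelled libraries lay above all 3 cKO-labelled ones, with the highest value in Ctrl 3 and the lowest in cKO 3 (p = 0.1, two-sided exact permutation test, the lowest that groups of 3 allow). The means were 46.5 ± 12.2 and 19.0 ± 5.02 CPM (SD, n = 3 each). Its log2 fold change was -1.29 (SE 0.245, 95% interval -1.87 to -0.72), with an adjusted p of 0.0118 by edgeR's quasi-likelihood test. Its call was kept in each of 6 fits that left out 1 library (log2 fold change -1.45 to -1.05, adjusted p 0.0147 to 0.0356).

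Fas, the prototypical death receptor, lies on the plus strand of chromosome 19 (34290666 to 34327772). The 3 cKO-labelled libraries lay within 6.18 to 6.31 CPM, while the Ctrl-labelled ones had 13.0, 9.19 and 6.21 CPM. Ctrl 3 sat inside the range of the other group, and the log2 fold change of -0.61 (SE 0.247, 95% interval -1.19 to -0.028) did not pass the test (adjusted p = 0.115). The value depended on single libraries. Without Ctrl 3 the gene passed (log2 fold change -0.83, adjusted p = 0.0183), and without Ctrl 1 the log2 fold change was -0.31 (adjusted p = 0.318).

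Tnfrsf1a, on chromosome 6 (125349362 to 125362484, plus strand), had 31.0, 32.2 and 29.4 CPM in the Ctrl-labelled libraries and 22.7, 29.4 and 23.6 CPM in the cKO-labelled ones. The groups overlapped only through cKO 2, which stood near the level of Ctrl 3. This gave a log2 fold change of -0.29 (SE 0.112, 95% interval -0.55 to -0.027), and the adjusted p of 0.101 did not pass. It passed without cKO 2 (log2 fold change -0.43, adjusted p = 0.0176). Tnfrsf10b, the single TRAIL death receptor of the mouse, lies on chromosome 14 (69767472 to 69784411, plus strand) and had 3.35, 2.85 and 3.47 CPM against 1.83, 2.36 and 3.16 CPM. The cKO-labelled libraries spread widely, and cKO 3 reached into the range of the other group. Tnfrsf10b had a log2 fold change of -0.39 (SE 0.224, adjusted p = 0.242), with an interval from -0.91 to 0.14. It was -0.63 without cKO 3 and -0.23 without cKO 1, and passed in none of the 6 fits without 1 library.

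Summed markers of immune cells, of slow fibres and of endothelial cells were higher in every Ctrl-labelled library than in every cKO-labelled one, as was Tnfrsf12a. Over all genes tested, 51.7% had log2 fold changes below 0, 11.8% were called in that direction and 12.6% in the other. Of 7 markers of immune cells, 6 were tested, 6 of these had log2 fold changes below 0, and 4 (Lyz2, Csf1r, Cd68 and Adgre1, all of macrophages or other myeloid cells) were called higher in the Ctrl-labelled libraries. All 7 markers together summed to 125 to 145 CPM in those libraries and 55.5 to 82.8 CPM in the cKO-labelled ones. The T cell marker Cd3e had too few counts to be tested, and no immune marker was at 0 in all libraries. All 5 slow-fibre markers had log2 fold changes below 0, and 2 (Myl2 and Tnnt1) were called, with sums of 4327 to 8110 CPM in the Ctrl-labelled libraries and 162 to 1944 CPM in the cKO-labelled ones. Fast-fibre Myh4 and the muscle kinase Ckm were called in the other direction, and Myh1 and Myh2 in the same direction as the slow genes. The 5 fibre genes summed to 75946 to 89035 CPM in the Ctrl-labelled libraries and to 108954 to 145376 CPM in the cKO-labelled ones. The label of muscle tissue thus fits its defining genes. The sums of the progenitor, endothelial and satellite cell lists were 961 to 1137, 378 to 390 and 5.92 to 6.15 CPM in the Ctrl-labelled libraries. In the cKO-labelled ones they were 718 to 989, 335 to 368 and 5.70 to 8.31 CPM, and 2 of 5, 1 of 5 and 0 of 4 of their genes were called. In bulk samples, fewer cells of a type and less RNA per cell cannot be told apart, and the part of these cell types in the results for the 8 genes was not tested.

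**Figure D2:**
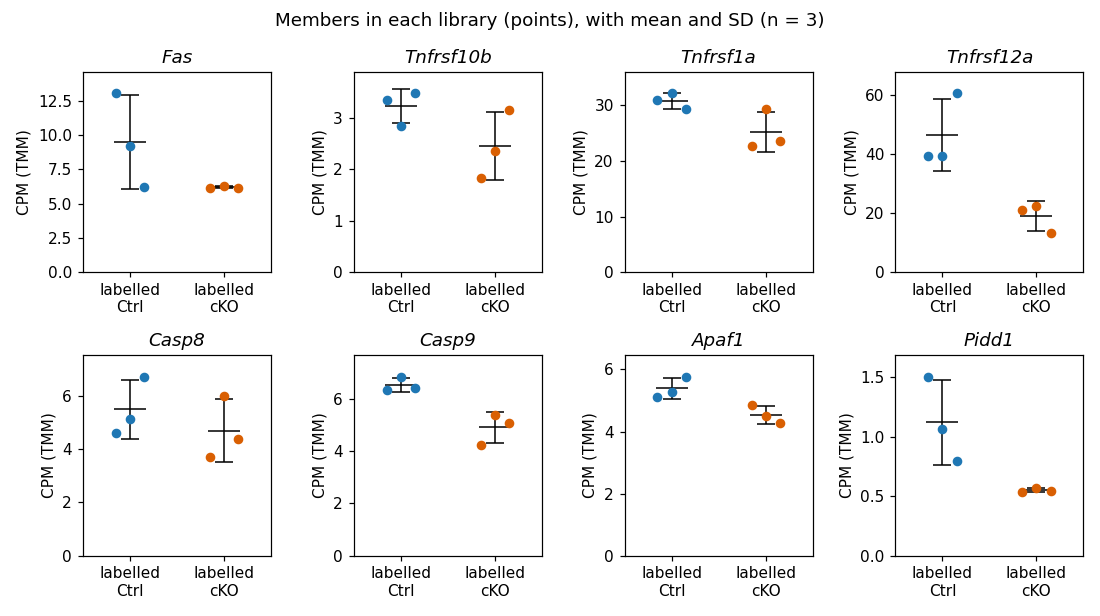
Each panel shows 1 member, with TMM-normalised CPM on a vertical axis that starts at 0, 1 point per library, and the mean ± SD of 3 libraries in black. The Ctrl-labelled libraries lie wholly above the cKO-labelled ones for Tnfrsf12a, Casp9, Apaf1 and Pidd1, and the groups overlap for the other 4 members.

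The initiator caspases did not pass the test. Casp8, which death receptors recruit through FADD, lies on chromosome 1 (58795374 to 58847503, plus strand). It had 4.62, 5.14 and 6.73 CPM in the Ctrl-labelled libraries and 3.70, 6.0 and 4.39 CPM in the cKO-labelled ones. The ranges overlapped broadly, with the second-highest value of all in cKO 2, and the log2 fold change of -0.23 (SE 0.222, adjusted p = 0.491) had an interval from -0.75 to 0.30. Leaving out 1 library moved it between -0.45 (without cKO 2) and -0.054 (without Ctrl 3), and it was -0.093 without cKO 1.

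Casp9, the caspase of the apoptosome, lies on chromosome 4 (141793612 to 141815976, plus strand) and had 6.33, 6.85 and 6.40 CPM against 4.23, 5.40 and 5.09 CPM. All Ctrl-labelled libraries lay above all cKO-labelled ones by a small margin, and the 3 of the former were close together. This was a 1.33-fold difference, or a log2 fold change of -0.41 (SE 0.131, 95% interval -0.72 to -0.10), and the adjusted p of 0.0591 just missed the threshold of 0.05. It passed without cKO 2 (adjusted p = 0.0495). Casp9 is the only member that shares exon bases with other genes, 94 bases or 1.81% of its exons with Cela2a and Ctrc on the opposite strand, and the strand setting of the counting is not given in the sources used here.

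The adaptor Apaf1, the scaffold of the apoptosome, lies on chromosome 10 (90989311 to 91082770, minus strand). It had 5.11, 5.28 and 5.77 CPM in the Ctrl-labelled libraries and 4.85, 4.49 and 4.27 CPM in the cKO-labelled ones. The groups did not overlap, but the gap was narrow. For Apaf1 the log2 fold change was -0.25 (SE 0.122, 95% interval -0.53 to 0.039), with an adjusted p of 0.179.

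Pidd1, on chromosome 7 (141438113 to 141444025, minus strand), encodes a death-domain protein that assembles the PIDDosome with the adaptor Cradd (RAIDD) and Casp2. It had 1.51, 1.06 and 0.793 CPM in the Ctrl-labelled libraries and 0.536, 0.571 and 0.545 CPM in the cKO-labelled ones. Each Ctrl-labelled library lay above each cKO-labelled one, and as for Fas the latter were nearly level while the former spread, with Ctrl 1 the highest and Ctrl 3 the lowest. The values rest on few reads, 59, 44 and 29 counts against 19, 22 and 24. The exact Poisson 95% interval of the lowest Ctrl-labelled library (19.4 to 41.6 counts) overlaps that of cKO 2, the highest of its group by CPM (13.8 to 33.3 counts). These intervals are on raw counts of libraries that differ in depth and cover counting error only. The log2 fold change was -1.02 (SE 0.293, 95% interval -1.71 to -0.33) with an adjusted p of 0.0430. The call was kept without Ctrl 3 (adjusted p = 0.0268) and lost without Ctrl 1, Ctrl 2, cKO 1, cKO 2 or cKO 3, with adjusted p values of 0.140, 0.0977, 0.116, 0.0765 and 0.124.

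The other PIDDosome genes did not follow Pidd1. Cradd had 6.97, 8.04 and 5.69 CPM in the Ctrl-labelled libraries and 12.2, 9.58 and 11.1 CPM in the cKO-labelled ones. It was thus higher in every cKO-labelled library, by 1.59-fold (log2 fold change 0.67, SE 0.156, adjusted p = 0.0229). Among other fits, the call of Cradd was lost without Ctrl 1, cKO 1 or cKO 3 (adjusted p 0.0744, 0.0862 and 0.0789) and when libraries were scaled by total counts (0.0715). Casp2 had 5.98, 6.25 and 5.33 CPM against 5.62, 5.74 and 6.27 CPM, with a log2 fold change of 0.0057 (SE 0.119, adjusted p = 0.978) and an interval from -0.27 to 0.28. The difference between the changes of Pidd1 and Cradd was not tested.

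Read as a group, 2 of the 8 members were called at an adjusted p under 0.05, both higher in the Ctrl-labelled libraries, where 11.8% of all genes tested were called in that direction and 12.6% in the other. Both also passed a fold change over 2, as 3.92% of all genes did in that direction. Unadjusted, 5 of the 8 had a p under 0.05, as did 38.8% of all genes tested. The groups did not overlap for 4 members, all higher in the Ctrl-labelled libraries, and for 0 in the other direction, against 21.9% and 22.0% of all genes. All 8 log2 fold changes were below 0, as were 51.7% of those of all genes, and their median was -0.40 against -0.016 for all genes.

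The scaling of the libraries matters to the number of calls. When libraries were scaled by total counts rather than TMM factors, the median of all genes moved to -0.27 and 85.8% of all calls were higher in the Ctrl-labelled libraries, against 48.3% with TMM factors. Under that scaling 6 of the 8 members were called, with Fas (adjusted p = 0.0406), Tnfrsf1a (0.0312), Casp9 (0.0215) and Apaf1 (0.0265) added. Of all 14180 genes tested, 4074 were then called higher in the Ctrl-labelled libraries, against 1668 with TMM factors. Relative to the median of all genes, the members' median was -0.38 under either scaling.

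**Figure D3:**
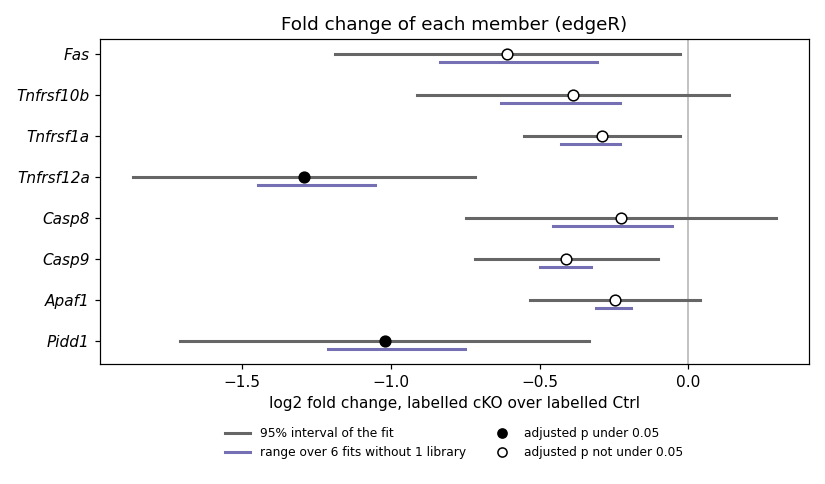
The horizontal axis is the log2 fold change, labelled cKO over labelled Ctrl, for each of the 8 members. Points are the estimates (filled where the adjusted p is under 0.05), grey lines their 95% intervals and purple lines the range over 6 fits without 1 library. Tnfrsf12a at -1.29 and Pidd1 at -1.02 are filled, and every estimate lies left of 0.

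The ligands of these receptors were scarce or did not pass the test. Fasl, the ligand of Fas, had 0 counts in all 6 libraries, and 3 counts, the limit that a count of 0 allows, correspond to 0.0682 to 0.0847 CPM. Tnf, the ligand of Tnfrsf1a, had 3, 5 and 4 counts in the Ctrl-labelled libraries and 1, 5 and 6 in the cKO-labelled ones, too few to pass the filter on low counts. Lta, which binds the same receptor, also fell below the filter on low counts, and had 1 count in each Ctrl-labelled library and 6, 6 and 7 in the cKO-labelled ones. With no filter it was called higher in the latter (adjusted p = 0.0274 in edgeR), and it was not called in DESeq2 (0.0863). At this depth these ligand transcripts were near or below the limit of detection, and protein was not measured here.

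Tnfsf12, which encodes TWEAK, the ligand of Tnfrsf12a, had 6.13, 6.13 and 5.47 CPM in the Ctrl-labelled libraries and 6.21, 4.36 and 6.70 CPM in the cKO-labelled ones. The groups overlapped, and its log2 fold change of -0.037 (SE 0.176, adjusted p = 0.898) had an interval from -0.45 to 0.38. Tnfsf10, which encodes TRAIL, varied most within the group labelled cKO, with 21.4, 4.39 and 30.3 CPM against 16.8, 15.8 and 10.9 CPM. Its log2 fold change of 0.37 (SE 0.578, adjusted p = 0.673) depended on single libraries. Without cKO 2 it was 0.82 with an adjusted p of 0.0445, and without cKO 3 it was -0.19.

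Beyond the 8 members, 47 other genes of the same pathways were counted by role, of which 41 were tested. Of these, 8 were called, 6 higher in the Ctrl-labelled libraries and 2 higher in the cKO-labelled ones. Over all genes tested the shares were 11.8% and 12.6%, which are also the background of the edgeR counts by role below. Leaving out 1 library gave from 2 calls (without Ctrl 1, cKO 1 or cKO 3) to 8 (without cKO 2). The median log2 fold change of the 41 was -0.20, and 28 were below 0, against a median of -0.016 and 51.7% below 0 over all genes. The groups did not overlap for 15 in the direction of the Ctrl-labelled libraries and for 3 in the other, against 21.9% and 22.0% of all genes.

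Of the 5 listed caspases tested besides the members, 2 were called, Casp4 higher in the Ctrl-labelled libraries and Casp12 higher in the cKO-labelled ones. Casp4, an inflammatory caspase that senses bacterial lipopolysaccharide, had 2.20, 1.47 and 2.30 CPM against 0.960, 0.805 and 1.07 CPM (log2 fold change -1.07, SE 0.246, adjusted p = 0.0216). The call was kept without Ctrl 2 or cKO 2 and lost without Ctrl 1, Ctrl 3, cKO 1 or cKO 3 (adjusted p 0.079, 0.0519, 0.0647 and 0.054). Casp12, a caspase of the endoplasmic reticulum, had 9.91, 8.59 and 7.99 CPM against 12.0, 13.0 and 21.3 CPM, with the highest value in cKO 3. For Casp12 the log2 fold change was 0.81 (SE 0.226, adjusted p = 0.0398). The call was kept without cKO 1 or cKO 2 and lost without Ctrl 1, Ctrl 2, Ctrl 3 or cKO 3 (adjusted p 0.082, 0.109, 0.0955 and 0.072), where without cKO 3 the log2 fold change was 0.49, and with total counts (0.0991).

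Among 10 other receptors of the family, edgeR called 3, all higher in the Ctrl-labelled libraries, and 9 had log2 fold changes below 0. Of all genes tested, 11.8% were called in that direction and 51.7% were below 0. DESeq2 called 5, with Tnfrsf25 and Tnfrsf11b added (adjusted p 0.0153 and 0.0316, against 0.0558 and 0.0701 in edgeR). Of the 18918 genes with a count, DESeq2 called 1821 higher in the Ctrl-labelled libraries. Tnfrsf11b rests on few reads, 42, 22 and 47 counts against 5, 22 and 8. The median of the 10 receptors was -0.52, against -0.40 for the 8 members and -0.0155 for all genes. These medians were not compared by a test. Eda2r, the receptor for ectodysplasin A2, on the X chromosome (97333840 to 97377216, minus strand), had 63.1, 53.5 and 114 CPM in the Ctrl-labelled libraries and 20.5, 23.5 and 41.2 CPM in the cKO-labelled ones. The groups did not overlap, and replicate 3 was the highest of both. The log2 fold change was -1.43 (SE 0.355, adjusted p = 0.0274). The call of Eda2r was kept without Ctrl 2 or cKO 3 and lost without Ctrl 1, Ctrl 3, cKO 1 or cKO 2 (adjusted p 0.058, 0.0504, 0.0872 and 0.0613).

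Tnfrsf1b, the second receptor for TNF and one without a death domain, had 9.68, 8.33 and 11.2 CPM against 6.27, 6.57 and 7.43 CPM. Its log2 fold change was -0.52 (SE 0.139, adjusted p = 0.0340), and of the 6 fits without 1 library only that without Ctrl 2 kept the call, with adjusted p values of 0.0562 to 0.0973 in the other 5. Edar, the receptor for ectodysplasin A1, was low, with 19, 42 and 54 counts against 12, 4 and 16. Its log2 fold change of -1.86 (SE 0.546, adjusted p = 0.0461) passed in 1 of the 6 fits without 1 library, that without Ctrl 1, with adjusted p values of 0.0804 to 0.111 in the other 5.

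The adaptors and regulators that connect the receptors to Casp8 did not pass the test. Fadd had 6.18, 7.87 and 7.49 CPM in the Ctrl-labelled libraries and 5.11, 5.89 and 6.02 CPM in the cKO-labelled ones. The groups did not overlap, but the log2 fold change of -0.34 (SE 0.137) did not pass (adjusted p = 0.113), and it passed only with total counts (0.0265). Ripk1, the kinase of the TNF receptor complex, had 8.86, 8.01 and 8.67 CPM against 5.95, 8.47 and 6.54 CPM (log2 fold change -0.28, SE 0.149, adjusted p = 0.202). Its groups overlapped through cKO 2, without which the adjusted p was 0.0384. Tradd, Traf2 and Cflar, the first 2 being adaptors of the TNF receptor and the last an inhibitor of Casp8, had log2 fold changes of -0.095, 0.13 and -0.10 with adjusted p values of 0.667, 0.387 and 0.491.

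Of the 10 adaptors and regulators tested, 2 were called, Cradd and, in the other direction, Traf1. Traf1, a signalling adaptor that NF-kappaB is known to induce, had 1.40, 1.23 and 1.56 CPM in the Ctrl-labelled libraries and 0.564, 0.467 and 0.614 CPM in the cKO-labelled ones. The groups were well apart, by 2.53-fold, but the values rest on few reads, 55, 51 and 57 counts against 20, 18 and 27. The log2 fold change was -1.34 (SE 0.229, adjusted p = 0.00849), and the call held in 6 of 6 fits without 1 library.

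On the mitochondrial side, Cycs, which encodes the cytochrome c that binds Apaf1, had 248 ± 34.5 and 252 ± 29.0 CPM (SD, n = 3 each), a log2 fold change of 0.024 (SE 0.134, adjusted p = 0.914). Of 7 mitochondrial and nuclease factors 1 was called. Dffa, the inhibitor and chaperone of the nuclease that cuts DNA in apoptosis, had 132, 119 and 93.3 CPM in the Ctrl-labelled libraries and 83.9, 77.8 and 71.3 CPM in the cKO-labelled ones. Its groups did not overlap, and Ctrl 3 was the nearest to the other group. For Dffa the log2 fold change was -0.56 (SE 0.136, adjusted p = 0.0254). The call was kept without Ctrl 3 or cKO 2 and lost without Ctrl 1, Ctrl 2, cKO 1 or cKO 3 (adjusted p 0.0799, 0.0785, 0.0568 and 0.0905).

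Of the 5 inhibitors of apoptosis, 0 were called by edgeR and 0 by DESeq2. In edgeR 2 had an unadjusted p under 0.05, as did 38.8% of all genes tested. Xiap, which binds and blocks Casp9, had a log2 fold change of 0.17 (SE 0.123, adjusted p = 0.342). The necroptosis genes Ripk3 and Mlkl were called by neither tool, with log2 fold changes of -0.72 and -0.67, an unadjusted p under 0.05 each and adjusted p values of 0.106 and 0.105 in edgeR.

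**Figure D4:**
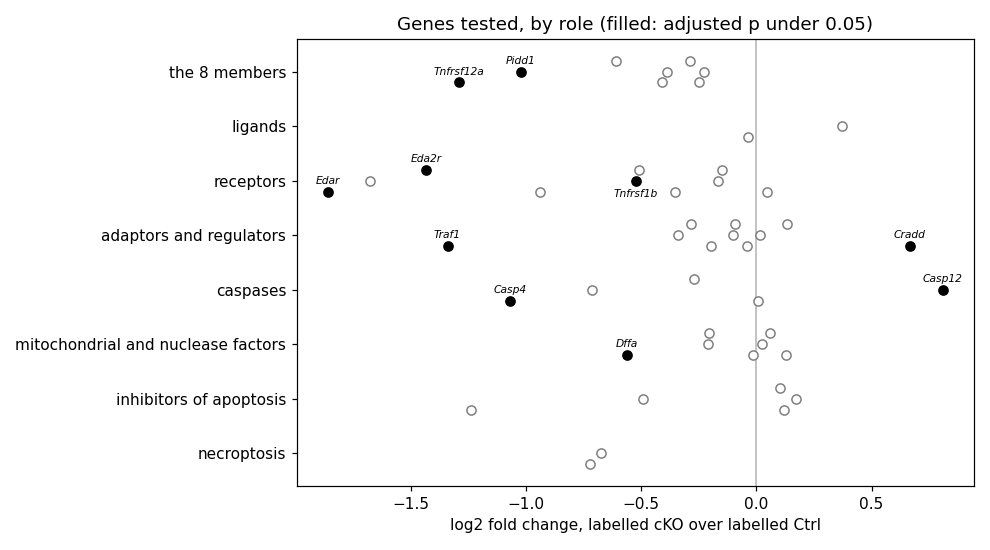
The horizontal axis is the log2 fold change, labelled cKO over labelled Ctrl, and each point is a gene tested, placed by role on the vertical axis and shifted slightly for legibility. Filled and named points have an adjusted p under 0.05, and they are Tnfrsf12a and Pidd1 among the members and 8 among the other genes, of which Cradd at 0.67 and Casp12 at 0.81 lie right of 0.

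The genes of the pathway list nearest in pattern to the called members were found by the root mean square difference of log2 CPM. Each gene was first centred on its mean over the 6 libraries. A small constant was added to CPM before the log, which shrinks differences most in genes of low level such as Birc5. For Tnfrsf12a the nearest were Birc5, an inhibitor of apoptosis made in dividing cells, at 0.354 log2 units, and Traf1, at 0.355. The order of Birc5 and Traf1 was not tested. Birc5 rests on few reads, 17, 10 and 20 counts in the Ctrl-labelled libraries and 6, 7 and 7 in the cKO-labelled ones, and did not pass the test (adjusted p = 0.0623). For Pidd1 the nearest were Tnfrsf25, at 0.121, and Dffa, at 0.207. Tnfrsf25, a death receptor best known from T cells, had 7.20, 4.05 and 3.31 CPM in the Ctrl-labelled libraries and 2.31, 2.54 and 2.73 CPM in the cKO-labelled ones. As for Pidd1 and Fas, Ctrl 1 was the highest of its group and Ctrl 3 the lowest, and the gene did not pass in edgeR (log2 fold change -0.94, adjusted p = 0.0558) but passed in DESeq2 (adjusted p = 0.0153). These distances describe 6 libraries of 2 groups and include the difference between the groups.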

How the data were processed

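The authors used FastQC 0.11.8 and Trimmomatic 0.39 on paired-end reads, HISAT2 2.1.0 for alignment (mm10) and featureCounts 1.6.2 for counting, per the labels and the submitters' processing notes. The gene annotation and strand setting are not given in the sources used here. The authors deposited 1 table of raw counts per library, not normalised, covering 24421 genes (18918 with a count somewhere). Rows without a gene name numbered 0. Total counts ranged from 33860001 to 48839910, and over all genes replicates differed by more than counting error, with a chi-square of 31.4 to 108 per degree of freedom.

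Groups follow the labels, which number separate mice. The test was edgeR 4.0.16 in R 4.3.3 (TMM factors, filterByExpr, glmQLFit and glmQLFTest, Benjamini-Hochberg adjustment over all 14180 genes tested), with calls at an adjusted p under 0.05 and, where stated, a fold change over 2. Standard errors and intervals came from the F statistic and its degrees of freedom. CPM uses TMM factors. Single genes were also given an exact permutation test (two-sided), which cannot go below 0.1 here. Alternatives were DESeq2 1.42.0 size factors and Wald test, no filter, total counts, a robust fit, a minimum of 10 counts per library, a block by mouse number and leaving out each library. The edgeR step was tested on simulated data. Positions and exon lengths came from GENCODE M21 on GRCm38, promoters from RefSeq on GRCm38.p6.

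The members and lists were chosen with earlier results of these data known. Named are the members, their direct partners, up to 3 called genes in each role of the pathway list, the 2 genes nearest in pattern to each called member, and Ppapdc3. Lta, Tnfsf15, Ripk3, Mlkl, Tnfrsf11b and the cell type markers fall outside that rule and were named after their values were seen. Some genes of these lists are not reported here and were left out of the lists and their counts.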

Additional observations from a re-analysis of the deposited data

How the results depend on the processing

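The log2 fold changes of the 8 members kept their sign under all 13 alternatives, and over these fits 90 calls of single members stayed on their side of the threshold, 7 were gained and 7 lost. Tnfrsf12a was called under each (adjusted p 3.76e-06 to 0.0489). Total counts gave 6 members called and 18 pathway genes called, and moved the members' median to -0.65. With that scaling 4074 of all 14180 genes tested were called higher in the Ctrl-labelled libraries. Without a filter 1 member was called, as Pidd1 missed (adjusted p = 0.0548), with or without the fold limit, and 9 pathway genes, with Lta added. With the mouse number as a replicate block, 1899 genes were called in place of 3454, 4 pathway genes in place of 8 (lost were Cradd, Casp12, Tnfrsf1b and Edar, at adjusted p 0.0606, 0.0888, 0.0517 and 0.0797) and 1 member with or without the fold limit (Pidd1, adjusted p = 0.0923). Over all genes, same-numbered mice did not deviate together (correlations 0.0848, -0.242 and -0.00992). So few correlations cannot decide whether the numbers mark pairs. Leaving out 1 library gave 1560 (without cKO 3) to 3585 genes called (without cKO 2), 1 to 3 members, 1 to 2 members with the fold limit, 2 to 8 pathway genes, and a members' median of -0.54 to -0.32. Signs turned in some other named genes. With total counts Traf2 went to -0.12, Casp2 to -0.25, Cycs to -0.23 and Xiap to -0.082, and with at least 10 counts in every library Casp2 went to -0.00096. Leaving out 1 library moved Tnfsf10 from -0.19 to 0.82, Tnfsf12 from -0.18 to 0.11, Casp2 from -0.060 to 0.058 and Cycs from -0.086 to 0.10. The cause was not tested. Precision is limited by 3 mice per group, and by low counts for genes such as Pidd1, Traf1, Tnfrsf11b, Edar, Birc5, Fasl, Tnf, Lta and Tnfsf15.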
